A study of Mus musculus with 6 samples.

Results

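The cytosolic ribosomal proteins are the structural proteins of the ribosome that works outside mitochondria, with those of the large subunit named Rpl and those of the small subunit named Rps. Members were chosen by gene symbol. They were all genes named Rpl or Rps followed directly by a digit, together with Rplp0, Rplp1, Rplp2 and Rpsa, and without S6 kinases, pseudogene symbols marked ps or symbols with a hyphen. Of 23420 genes, 86 met this rule, and 81 of them had values over -0.76 in at least 3 samples and were tested among 11233 genes. Each of the 81 was over this value in all 6 samples. The threshold is a log2 CPM (log2 of counts per 1 M counted reads) worth about 10 reads.

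B cells were purified with beads from spleens of wild-type BALB/c mice aged 7 to 11 weeks, and 10 M cells at 10 M per ml were cultured for 4 hours with CpG ODN 1826 at 10 µg/ml or left unstimulated. CpG ODN 1826 is a synthetic DNA that activates TLR9, an endosomal sensor of DNA. There were 3 CpG and 3 unstimulated samples, with replicates 1 and 2 from female and replicate 3 from male mice. The labels name 3 mice as the source but do not say which mouse gave which sample, and if any replicates shared a source, the p values would measure only the spread between cultures. B cell markers were abundant in all 6 samples, and the 8 genes of this list, led by Cd79b, had a median of 8.57 log2 CPM. With CpG, 2 of the 8 were higher, among them Ms4a1, and 6 were lower, among them Cd79a, Cd79b and Cd22. These are 25% and 75%, beside 37.6% and 36.7% of all tested genes. Their summed CPM was between 4103 and 4758 in unstimulated and between 2604 and 2999 in CpG samples.

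Cells make the ribosomal proteins in nearly equal numbers, since each ribosome carries about 1 copy of most of them, and their mRNAs are among the most abundant in growing cells. These mRNAs usually begin with a run of pyrimidines, the TOP motif, through which the kinase mTORC1 and the binding protein LARP1 control how well they are translated and how long they last. Activated lymphocytes enlarge and raise ribosome production before they divide. RNA-seq measured mRNA levels here, and not translation or ribosome number.

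With CpG, cytosolic ribosomal protein genes that were lower outnumbered those that were higher. Of the 81 tested, 38 were lower and 8 were higher at an adjusted p under 0.05 (limma, Benjamini-Hochberg), and 35 did not pass. Over all 11233 tested genes, 36.7% were lower and 37.6% were higher, while 46.9% and 9.88% of the ribosomal protein genes were. The median log2FC (log2 of the fold change, CpG against unstimulated) was -0.17, with quartiles of -0.32 and -0.06, and that of all tested genes was 0.00. Most changes were small on the values as deposited. Only 6 members were lower by more than 0.5 on the log2 scale, a step that 27.6% of all tested genes passed downward, and 5 were higher by more than 0.5, against 28.6% of all tested genes. None was lower by more than 1, against 1723 of all 11233 tested genes. Of the members, 3 were higher by more than 1, against 1778 of all tested genes. After removal of the trend with transcript length, an alternative described below, the median was -0.47. In that fit 71 members were lower, beside 36.8% of all tested genes. By construction this removal lowers the log2FC of short genes, since the other tested genes of 1624 bases or fewer had a median of 0.30 before it.

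The samples were separated for many members even where the difference was small. In 51 of 81 members every CpG sample was below every unstimulated sample, as in 38.6% of all tested genes, and in 9 every CpG sample was above, as in 39.1% of all tested genes. The values are relative, because quantile normalization gives all samples the same distribution, so a change in total mRNA per cell would not appear. In bulk RNA, a smaller number of cells of a type and less RNA per cell cannot be told apart.

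**Figure D1:**
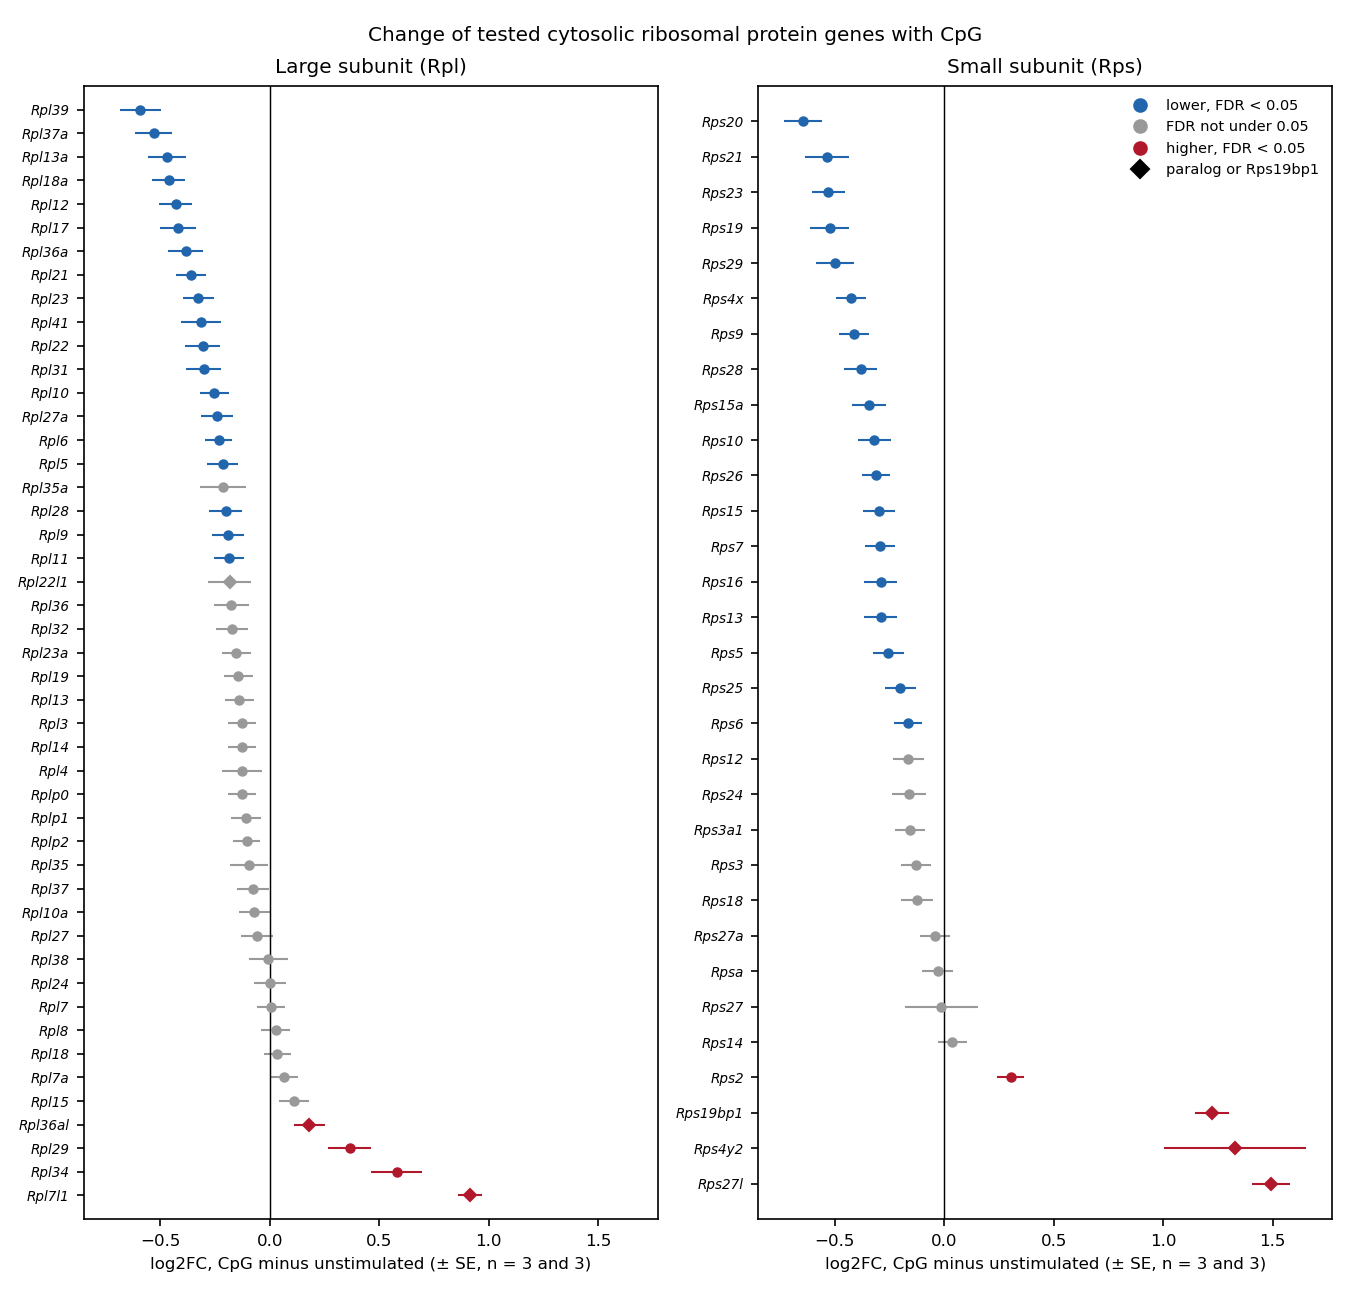
The log2FC of tested genes (CpG minus unstimulated, points) with its SE (bars, 3 samples a group) is drawn for the large subunit at the left and the small subunit at the right, in blue for lower, red for higher and gray for genes not past an adjusted p of 0.05. Diamonds are paralogs and Rps19bp1, and 5 of the 8 red symbols are diamonds.

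Summed over all 86 members, ribosomal protein mRNA made up 8.59%, 9.39% and 8.55% of the summed CPM in CpG replicates 1, 2 and 3. The share was 10.2%, 10.4% and 10.2% in the unstimulated replicates. All CpG samples were below all unstimulated samples, with means of 8.84% ± 0.476 (SD, n = 3) and 10.2% ± 0.110 (SD, n = 3). The two-sided exact permutation test gave p = 0.1, the smallest p that 3 against 3 samples allow. This test did not pair samples by replicate number, and the share was lower with CpG within each number. Among the 200 most abundant genes of each sample, 59, 62 and 60 were members in unstimulated replicates 1, 2 and 3, and 54, 58 and 53 in the CpG replicates.

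CpG replicate 2 stood apart from the other CpG samples in most members. In 74 of 81 it had the highest value of the 3 CpG samples, as in 35.1% of all tested genes, and unstimulated replicate 2 was the highest of its group in 39 of 81, as in 29.3% of all tested genes. Differences between replicate numbers are less certain than those within a number, since the deposited values carry a shift by number. Within pairs of the same number the median difference of the members was -0.21 in pair 1, -0.11 in pair 2 and -0.23 in pair 3, and 68, 60 and 67 of the 81 were below 0, beside 5501, 5643 and 5532 of the 11233 tested genes. In 59 members all 3 pairs were below 0, as in 4753 of all tested genes, and in 11 all were above, as in 4874.

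Erythroid markers also differed by replicate number. The summed CPM of 11 such genes was 3951 in unstimulated replicate 2 and 5008 in CpG replicate 2, and between 399.6 and 634.6 in the other 4 samples. Beta-s, an adult globin gene, was the most abundant of them, while 4 other globin symbols (Hbb-b1, Hbb-b2, Hba-a1, Hba-a2) were listed with no reads in any sample. None of the 7 erythroid markers tested passed an adjusted p of 0.05 (limma) between CpG and unstimulated samples. With the replicate number as a block, Beta-s was higher (adjusted p = 0.0245, limma) and Slc4a1 and Bpgm were lower (adjusted p = 0.00719 and 0.0304, limma). Replicate 2 also differed with transcript length. Among the other tested genes, CpG replicate 2 minus the mean of CpG replicates 1 and 3 had a median of 0.065 in the fifth with the shortest transcripts. It was -0.09 in the fifth with the longest, and 0.153 in the members. In unstimulated samples these medians were 0.03, -0.045 and 0.029. The part of erythroid cells and of length in the values of replicate 2 was not tested. Without both samples numbered 2, a comparison chosen after seeing the data, 50 members were lower and 7 were higher (in that fit 35.2% of all tested genes were lower and 36.6% higher), the median log2FC was -0.21, and the share of summed CPM differed by -1.60 percentage points instead of -1.39. All 38 genes that were lower with all samples were among the 50.

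**Figure D2:**
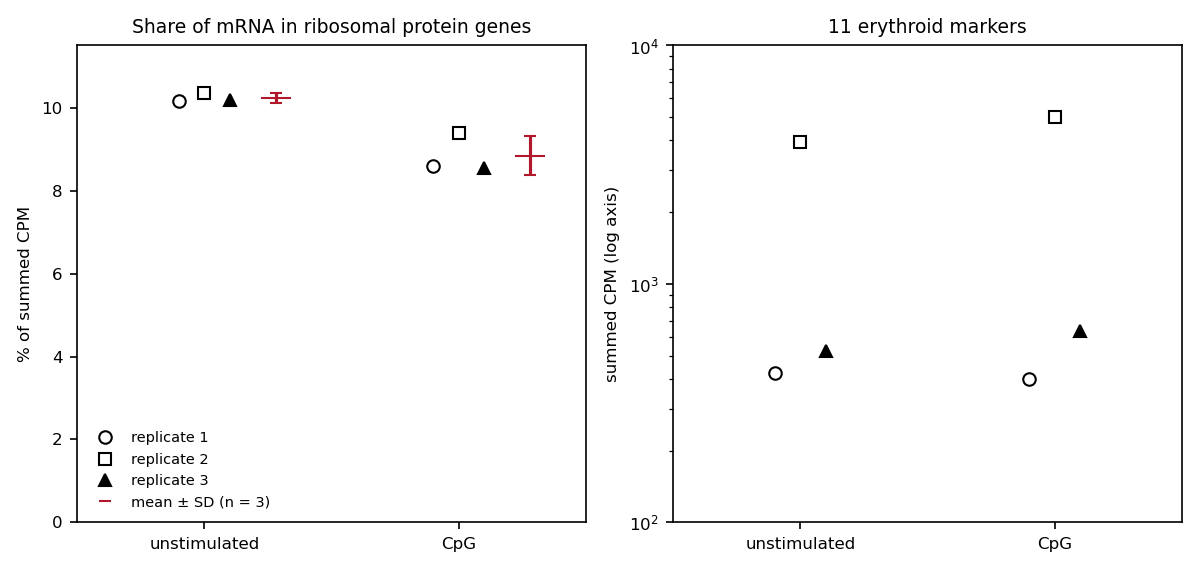
The left panel shows the percent of summed CPM in the 86 ribosomal protein genes in each sample, with mean and SD (red, n = 3), and the right panel the summed CPM of 11 erythroid markers on a log axis. Circles, squares and triangles are replicates 1, 2 and 3, with males filled. The CpG shares run from 8.55% to 9.39%, below all unstimulated shares, and both samples numbered 2 have the highest erythroid sums.

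Markers of other cell types were also counted. Of 7 T cell markers only Lck, which B cells can also express, had a mean over -0.76 log2 CPM, and Lck was higher by a log2FC of 0.67 (adjusted p = 0.000158, limma). The list summed to between 71.1 and 91.7 CPM in unstimulated and between 124.4 and 141.4 CPM in CpG samples. Myeloid markers summed to between 6.74 and 15.4 CPM, with overlap between groups. Emr1, the most abundant of them, was higher by a log2FC of 0.83 (adjusted p = 0.00811, limma), and Csf1r was lower by -1.61 (adjusted p = 0.018, limma). NK cell markers, all with means under the threshold, were not tested. They summed to between 0.206 and 0.312 CPM in unstimulated and between 0.715 and 1.40 CPM in CpG samples. Klrb1c led them, and its value was higher with CpG in each pair. Klrd1 differed by -2.73, -2.86 and 0 on the log2 scale in pairs 1, 2 and 3. Ncr1 and Gzma were higher in some pairs and equal in others. The 4 markers of plasmacytoid dendritic cells summed to between 251.6 and 260.8 CPM in unstimulated and between 127.4 and 133.6 CPM in CpG samples, and most of this was Tcf4, which B cells also use and which was lower. Of the others, Bst2 was higher by a log2FC of 0.92 (adjusted p = 1.16e-05, limma) and Ccr9 was lower by -0.94 (adjusted p = 0.0158, limma). Siglech, the most specific of them, had a mean under the threshold and was not tested, and its value was higher with CpG in each pair (by 0.12, 1.79 and 0.997 on the log2 scale). Plasmablast genes, led by Irf4, summed to between 2027 and 2315 CPM in unstimulated and between 2714 and 2977 CPM in CpG samples. Of these 5 genes Irf4 was higher, Xbp1, Sdc1 and Igj were lower, and Prdm1 did not pass. The part of these changes in the ribosomal protein values was not tested.

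The members fell into core ribosomal proteins and related genes that share their symbols. The related genes were 8 paralogs and Rps19bp1, which encodes a protein that binds Rps19 and is not part of the ribosome. Of the 75 core genes tested, 38 were lower, 3 were higher and 34 did not pass, with a median log2FC of -0.19. These are 50.7% lower and 4.00% higher, beside 36.7% and 37.6% of all tested genes. All 38 lower members were thus core genes. Of the 6 related genes tested, 5 were higher (83.3%) and 1 did not pass, with a median of 1.07.

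Core genes moved within a narrow range compared with all tested genes. The SD of their log2FC was 0.22, while that of all tested genes was 1.12. All tested genes include many at far lower levels, and the SD of other abundant genes is not given here. Of 44 core genes of the large subunit, 19 were lower and 2 were higher (43.2% and 4.55%), with a median of -0.16. Of 31 core genes of the small subunit, 19 were lower and 1 was higher (61.3% and 3.23%), with a median of -0.29. The shares of all tested genes were 36.7% lower and 37.6% higher. The difference between the subunits was not tested. The genes lie on 19 chromosomes, and each of the 4 on the X chromosome, Rpl10, Rpl36a, Rpl39 and Rps4x, was lower. Among all core genes 50.7% were lower, as were 36.7% of all tested genes, and no test compared chromosomes.

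Abundant genes in general did not share this direction. Of 210 other tested genes with a mean over 9 log2 CPM, 36.7% were lower and 44.3% were higher, with a median log2FC of 0.12, while 68 members were over that level. Nor did short genes. Among the other tested genes, the fifth with the shortest transcripts (1624 bases or fewer) had a median log2FC of 0.30, and the fifth with the longest (4785 bases or more) had -0.23. Ribosomal protein mRNAs are mostly short, and their median of -0.17 was opposite in sign to that of the short genes. When the trend with length was removed from each sample, an alternative chosen after seeing the data, 71 members were lower and 4 were higher (in that fit 36.8% of all tested genes were lower and 37.3% higher), and the median was -0.47. The part of length and level in the members' values was not tested.

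Rps20, of the head of the small subunit, had the lowest log2FC on the values as deposited. It was 9.68, 9.87 and 9.53 log2 CPM in CpG replicates 1, 2 and 3 and 10.33, 10.32 and 10.37 in the unstimulated replicates. All CpG values were below all unstimulated values, and the unstimulated values lay close together. Rps20 was lower by a log2FC of -0.64 ± 0.09 (SE), to 64.0% of the unstimulated level (adjusted p = 6.79e-05, limma). The pairs differed by -0.64, -0.45 and -0.84. With the length trend removed Rps20 was at -0.58, and other members were lower than it, such as Rps21 at -0.98 and Rps29 at -0.95. This change of rank depends on the annotated transcript. That of Rps20 has 3706 bases, with 357 coding bases, so Rps20 was corrected as a long gene. Those of Rps21 and Rps29 have 394 and 390 bases.

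Rpl39, a small protein that lines the tunnel through which the new peptide leaves the large subunit, was the next. Its values were 8.70, 9.01 and 8.67 log2 CPM with CpG and 9.34, 9.48 and 9.34 without. The groups did not overlap, and replicate 2 was the highest in both. Its log2FC was -0.59 ± 0.09 (SE; adjusted p = 0.000217, limma), or 66.4% of the unstimulated level.

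Rps21, a small subunit protein of eukaryotes, was 9.10, 9.41 and 9.06 log2 CPM with CpG and 9.62, 9.86 and 9.70 without. Rpl37a, a zinc-binding protein of the large subunit, was 9.29, 9.55 and 9.27 with CpG and 9.85, 9.98 and 9.87 without. Rps23, which lies at the decoding center, was 9.79, 9.93 and 9.68 with CpG and 10.31, 10.36 and 10.32 without. None of these 3 overlapped between groups, and in each of them CpG replicate 2 was the highest CpG sample. Their log2FC were -0.54 ± 0.10, -0.53 ± 0.08 and -0.53 ± 0.07 (SE), with adjusted p (limma) of 0.000717, 0.000244 and 9.45e-05.

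Rps19, the gene most often mutated in Diamond-Blackfan anemia, was 9.67, 9.96 and 9.71 log2 CPM with CpG and 10.18, 10.34 and 10.39 without. Rps29, a zinc-binding protein of the small subunit, was 9.45, 9.66 and 9.38 with CpG and 9.90, 10.08 and 10.01 without. Again the groups were apart. Their log2FC were -0.52 ± 0.09 and -0.50 ± 0.09 (SE), with adjusted p (limma) of 0.000437 and 0.000397. Among the other lower genes, the log2FC of Rpl13a was -0.47, and the smallest change was that of Rps6, at -0.17.

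Some of the best-studied members changed little on the values as deposited. Rps6, the small subunit protein that S6 kinases phosphorylate downstream of mTORC1, was 10.32, 10.42 and 10.33 log2 CPM with CpG and 10.53, 10.54 and 10.50 without. The groups did not overlap, and the log2FC was -0.17 ± 0.06 (SE; adjusted p = 0.0357, limma). This call was lost in 5 of the 6 fits that left out 1 sample. Over these 6 fits the log2FC ran from -0.20 to -0.15, and the call was kept with the replicate block (adjusted p = 0.0233, limma). The call was also lost with no filter and with no variance trend (adjusted p = 0.103 and 0.0502, limma). Rpl5 and Rpl11 form a particle with 5S rRNA that can bind Mdm2 and stabilize p53 when ribosome assembly fails. Rpl5 was 10.93, 10.98 and 10.84 with CpG and 11.15, 11.16 and 11.09 without, a log2FC of -0.22 ± 0.07 (SE; adjusted p = 0.0171, limma). Rpl11 was 9.87, 10.04 and 9.83 with CpG and 10.12, 10.11 and 10.07 without, a log2FC of -0.19 ± 0.07 (SE; adjusted p = 0.034, limma). Neither overlapped between groups. Leaving out 1 sample ended the call for Rpl5 in 3 of 6 fits (unstimulated replicate 1 or 2 or CpG replicate 3) and for Rpl11 in 5 of 6, with log2FC still below 0. Both calls were kept with the block (adjusted p = 0.00873 and 0.0128, limma) and lost with no filter (adjusted p = 0.0742 and 0.0859, limma). Rpl11 also lost its call with no variance trend (adjusted p = 0.0662, limma). With the length trend removed, the log2FC of Rps6, Rpl5 and Rpl11 were -0.45, -0.33 and -0.48 (adjusted p = 5.36e-05, 0.00135 and 5.74e-05, limma).

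The P stalk, made of Rplp0, Rplp1 and Rplp2, recruits elongation factors to the ribosome. Rplp0 was 10.43, 10.49 and 10.46 log2 CPM with CpG and 10.65, 10.59 and 10.53 without. Rplp1 was 10.86, 10.91 and 10.79 with CpG and 11.03, 10.95 and 10.91 without. Rplp2 was 10.10, 10.20 and 10.07 with CpG and 10.23 in all 3 unstimulated samples. In each, every CpG sample was below every unstimulated one, yet the log2FC of -0.13, -0.11 and -0.11 did not pass (adjusted p = 0.0991, 0.182 and 0.153, limma). For Rplp2 it passed without CpG replicate 2, with a log2FC of -0.15 (adjusted p = 0.034, limma). With the length trend removed all 3 passed, with log2FC of -0.35, -0.48 and -0.38 (adjusted p = 0.000556, 0.000123 and 0.000192, limma).

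Rpsa, also known as the laminin receptor, was 11.49, 11.61 and 11.54 log2 CPM with CpG and 11.61, 11.54 and 11.57 without. The groups overlapped, and the log2FC of -0.03 ± 0.07 (SE) did not pass (adjusted p = 0.716, limma). Rps27a, made as a fusion with ubiquitin, was 10.18, 10.32 and 10.17 with CpG and 10.23, 10.29 and 10.28 without. Its groups overlapped as well (log2FC -0.04 ± 0.07, SE; adjusted p = 0.581, limma).

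Of the 35 members that did not pass, 29 had a log2FC below 0. Besides those above they included Rpl35a, Rpl22l1, Rpl36, Rpl32, Rps12, Rps24, Rps3a1, Rpl23a, Rpl19, Rpl13, Rpl3, Rpl14, Rps3, Rpl4, Rps18, Rpl35, Rpl37, Rpl10a, Rpl27, Rps27, Rpl38 and Rpl24. The 6 above 0 were Rpl7, Rpl8, Rpl18, Rps14, Rpl7a and Rpl15, with log2FC up to 0.11. With the replicate number as a block, 46 members were lower and 8 were higher, against 38.2% and 39.1% of all tested genes. The block added Rpl35a, Rpl36, Rpl22l1, Rpl32, Rps12, Rpl23a, Rps24 and Rps3a1 to the lower genes, with adjusted p (limma) from 0.00762 to 0.0478, and kept the other 38. With the length trend removed, Rps27a, Rpl3, Rps24 and Rpl22l1 were among the genes that passed as lower (adjusted p = 0.000361, 0.000443, 0.00145 and 0.000159, limma).

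The 3 core genes that were higher were Rpl34, Rpl29 and Rps2, and the first 2 were listed at far lower levels than most. Rpl34 was 3.58, 3.84 and 3.79 log2 CPM with CpG and 3.26, 3.03 and 3.19 without, a log2FC of 0.58 ± 0.12 (SE; adjusted p = 0.00126, limma). Rpl29 was 6.13, 6.34 and 6.12 with CpG and 5.82, 6.01 and 5.67 without, a log2FC of 0.36 ± 0.10 (SE; adjusted p = 0.00631, limma). Rps2, whose protein sits where mRNA enters the small subunit, was 8.97, 9.02 and 8.91 with CpG and 8.71, 8.69 and 8.59 without, a log2FC of 0.30 ± 0.06 (SE; adjusted p = 0.00133, limma). All 3 were above the unstimulated range in every CpG sample. None of the 3 passed after the length trend was removed, with log2FC of 0.25, 0.05 and 0.04 and adjusted p (limma) of 0.0762, 0.576 and 0.601.

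Levels between genes were compared per kb of coding sequence. The 75 tested core genes had a median of 11.29 log2 CPM per kb, with quartiles of 10.93 and 11.61, and 71 of them were over 9. The highest was Rpl41, a peptide of 75 coding bases, at 13.12 log2 CPM per kb. Its transcript has 437 bases and reads were counted per gene, so this rank depends on dividing by coding length. Rpl41 was 9.17, 9.41 and 9.09 log2 CPM with CpG and 9.45, 9.65 and 9.52 without. These groups did not overlap (log2FC -0.32 ± 0.09, SE; adjusted p = 0.00983, limma).

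Below Rpl41 came Rplp1 (12.46 log2 CPM per kb), Rps29 (12.32), Rps24 (12.27) and Rpl12 (12.04). Rps24 was 10.79, 11.00 and 10.81 log2 CPM with CpG and 10.96, 11.07 and 11.06 without, and its groups overlapped (log2FC -0.16 ± 0.08, SE; adjusted p = 0.0884, limma). Rpl12 was 10.71, 10.88 and 10.84 with CpG and 11.23, 11.19 and 11.31 without, with no overlap (log2FC -0.43 ± 0.07, SE; adjusted p = 0.000422, limma).

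The lowest of the tested core genes were Rps27 at 4.64 log2 CPM per kb, Rpl34 at 4.96 and Rpl29 at 7.07. Rps27 was 2.45, 2.84 and 2.66 log2 CPM with CpG and 2.6, 2.94 and 2.45 without, and the groups overlapped (log2FC -0.01 ± 0.17, SE; adjusted p = 0.948, limma). Rpl26 stood at -5.15 in each of the 6 samples, which is the value for no reads. Rpl30 was -2.38, -1.57 and -1.14 with CpG and -1.18, -1.18 and -2.90 without, all below the threshold for testing. Both encode core proteins of the large subunit, so these listed values cannot be read as the cells' levels.

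Ribosomal protein genes have many processed pseudogenes, and reads that match several places are uncertain. Of all stretches of 75 bases in the Rps27 transcript, 98.5% also occur in another annotated transcript, and 57.5% for Rpl26, 24.5% for Rpl30, 30.5% for Rpl34 and 57.4% for Rpl29. Rpl10 and Rpl9 have such stretches in 91.9% and 91.3% and were at 9.89 to 10.25 and 10.78 to 11.10 log2 CPM. Across the 77 core genes the mean level and this percent had a Spearman rho of -0.0944, and across the 75 tested genes the log2FC and this percent had one of 0.264. Values of members with many shared stretches are therefore uncertain, and the part of shared reads in the low levels was not tested.

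Shorter core genes were lower by somewhat more. The 39 with coding sequences of 75 to 468 bases had a median log2FC of -0.21, with 21 lower and 1 higher. The 36 with 471 to 1257 bases had a median of -0.15, with 17 lower and 2 higher. For comparison, 36.7% of all tested genes were lower and 37.6% were higher. Across the 75 genes the Spearman rho between log2FC and coding length was 0.283. With mean level it was -0.0456. Genes are not independent replicates, and these values describe the 6 samples only.

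The highest log2FC among all members belonged to paralogs. Rps27l, a paralog of Rps27 that is known as a p53 target gene, was 6.38, 6.44 and 6.33 log2 CPM with CpG and 4.72, 4.95 and 5.005 without. All CpG samples were more than 1 log2 unit above all unstimulated ones. The log2FC was 1.49 ± 0.09 (SE; adjusted p = 1.99e-07, limma), or 282% of the unstimulated level. Rps27 itself did not pass, and its listed level was uncertain as described. It passed as lower only with the length trend removed (log2FC -0.50, adjusted p = 0.0138, limma).

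Rpl7l1, a relative of Rpl7, was 8.30, 8.27 and 8.23 log2 CPM with CpG and 7.33, 7.34 and 7.39 without, a log2FC of 0.92 ± 0.06 (SE; adjusted p = 2.52e-07, limma). Rpl7, a core large subunit protein, was 11.03, 11.01 and 10.94 with CpG and 10.99, 10.99 and 10.98 without. Rpl7l1 was separated by group, and Rpl7 overlapped (adjusted p = 0.952, limma). With the length trend removed, Rpl7 passed as lower (log2FC -0.24, adjusted p = 0.00609, limma). Per kb of coding sequence, Rpl7l1 was -3.50 ± 0.03 log2 units relative to Rpl7 without CpG and -2.59 ± 0.02 with it (SD, n = 3).

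Rpl36al was 7.52, 7.76 and 7.64 log2 CPM with CpG and 7.48, 7.51 and 7.39 without, a log2FC of 0.18 ± 0.07 (SE; adjusted p = 0.044, limma). Its X-linked relative Rpl36a was 8.73, 8.98 and 8.71 with CpG and 9.19, 9.25 and 9.13 without, a log2FC of -0.38 ± 0.08 (SE; adjusted p = 0.00148, limma). The 2 genes thus moved in opposite directions, and Rpl36al relative to Rpl36a went from -1.73 ± 0.02 to -1.17 ± 0.08 log2 units per kb (SD, n = 3). The call for Rpl36al was close to the threshold. It was lost in 5 of the 6 fits without 1 sample, and it turned to -0.18 when the length trend was removed (adjusted p = 0.0199, limma). Rpl36al also overlaps another annotated coding gene on the same strand.

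Rpl22 and Rpl22l1 are paralogs that are known to regulate each other in lymphocytes. Rpl22 was 8.88, 9.08 and 8.77 log2 CPM with CpG and 9.21, 9.25 and 9.19 without, a log2FC of -0.31 ± 0.08 (SE; adjusted p = 0.00601, limma). Rpl22l1 was 7.73, 8.02 and 7.62 with CpG and 7.99, 8.04 and 7.89 without, a log2FC of -0.18 ± 0.10 (SE; adjusted p = 0.109, limma). Rpl22 was separated by group and Rpl22l1 overlapped. With the replicate block Rpl22l1 passed (adjusted p = 0.0132, limma), and it also passed without CpG replicate 2 (log2FC -0.30, adjusted p = 0.00199). Per kb, Rpl22l1 relative to Rpl22 was -1.17 ± 0.05 without and -1.05 ± 0.05 log2 units with CpG (SD, n = 3).

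Rps4y2 is listed under this symbol in the data and as Rps4l, a transcribed pseudogene of a single exon, in GENCODE, at chr6:148354656-148355598 on GRCm38. It was 1.51, 0.53 and 1.73 log2 CPM with CpG and -0.03, -0.05 and -0.13 without. The groups did not overlap, and CpG replicate 2 was well below the other CpG samples. The log2FC was 1.33 ± 0.32 (SE; adjusted p = 0.00386, limma). Rps4x, the X-linked gene from which the family derives, was 11.05, 11.01 and 10.94 with CpG and 11.45, 11.39 and 11.45 without, and was lower (log2FC -0.43 ± 0.07, SE; adjusted p = 0.000273, limma).

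Rps19bp1 was 5.62, 5.71 and 5.61 log2 CPM with CpG and 4.42, 4.51 and 4.34 without, a log2FC of 1.22 ± 0.08 (SE; adjusted p = 3.53e-07, limma). Rps19 was lower, as given above, so the binding protein and its partner moved in opposite directions. Rpl39l, a paralog of Rpl39 mostly known from testis, was not tested, with values of -3.24, -1.28 and -0.74 with CpG and -3.32, -3.33 and -3.38 without. Rpl3l, a form of Rpl3 known from muscle, was between -5.33 and -2.91 in all samples and not tested. Its parent Rpl3 was 10.16, 10.22 and 10.11 with CpG and 10.34, 10.27 and 10.27 without, apart but not past the test (adjusted p = 0.0913, limma). Rpl10l, known from male germ cells, was listed at -5.15 in every sample. Its parent Rpl10 was 9.95, 10.05 and 9.89 with CpG and 10.23, 10.25 and 10.18 without, and was lower (log2FC -0.25 ± 0.07, SE; adjusted p = 0.00529, limma).

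**Figure D3:**
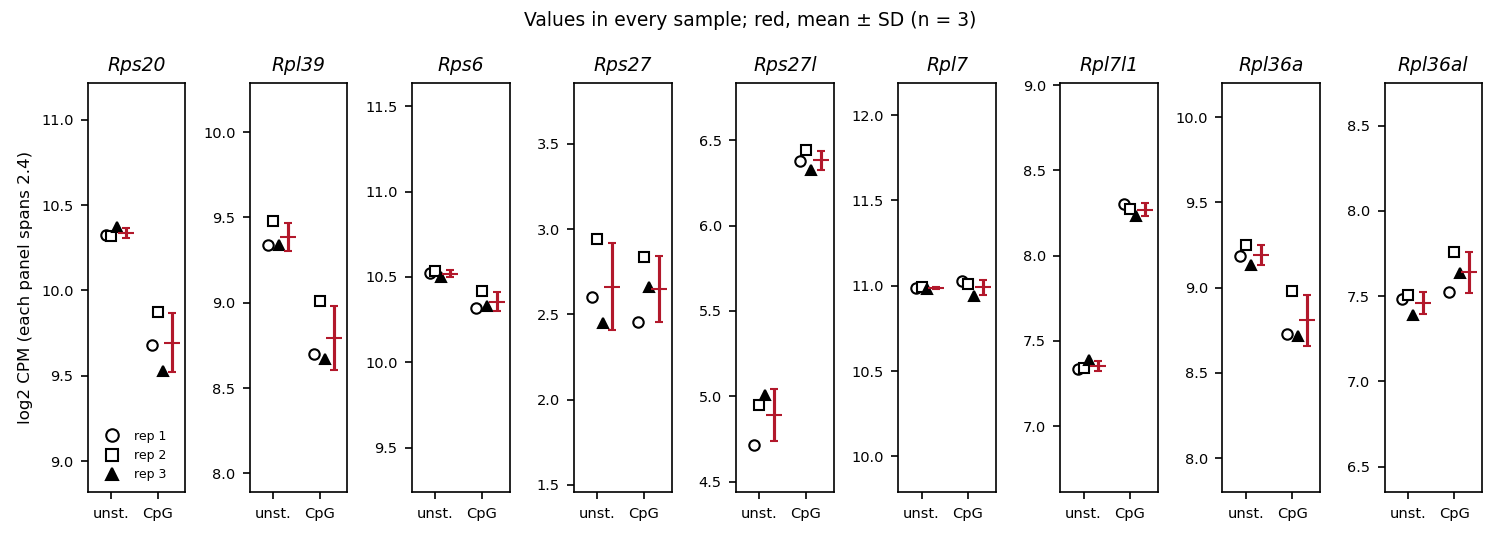
Values of 9 genes in log2 CPM are shown in each sample, with circles, squares and triangles for replicates 1, 2 and 3 and the mean and SD in red (n = 3). Each panel spans the same range on the log2 scale. Rps27l and Rpl7l1 lie higher in all CpG samples while Rps27 and Rpl7 overlap between groups, and Rps20, Rpl39, Rps6 and Rpl36a lie lower in all CpG samples.

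Some ribosomal proteins have other symbols and were described apart. Fau is made as a fusion with a ubiquitin-like protein, and Gnb2l1 is the scaffold protein RACK1 of the small subunit. Fau was 9.81, 10.17 and 9.84 log2 CPM with CpG and 10.44, 10.53 and 10.55 without, and was lower by a log2FC of -0.56 (adjusted p = 0.000416, limma). Gnb2l1 was 10.91, 10.87 and 10.88 with CpG and 11.01, 10.96 and 10.91 without, and did not pass (log2FC -0.07, adjusted p = 0.323, limma). Both had every CpG sample below every unstimulated sample.

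The start sites of members were searched for a TOP-like run, because the TOP motif lies at the beginning of mRNAs under mTORC1 control. The run was a C followed by C or T, of at least 6 letters in all, starting between 10 bases before and 30 after the RefSeq start on the coding strand. Of 27025 genes with a RefSeq promoter (GRCm38.p6), 32.3% held such a run. It was found in 46 of the 65 members with an entry, and in 43 of 57 core genes (75.4%) and 3 of 8 others. Among core genes it was found in 23 of 31 lower genes (74.2%) and in 17 of 23 that did not pass (73.9%), so its share was similar in both, and both higher core genes with an entry held it. A match only describes the letters, and a RefSeq start may differ from the start used in B cells. Runs that began some bases before or after the RefSeq start were also counted, so a match is not by itself a TOP motif.

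The 30 bases around the RefSeq start are printed for 5 of the lower core genes with the whole run inside, picked as examples to show what the search matched, and for 2 higher members without it. Other higher members held a run, among them Rpl34, Rps2 and Rpl36al. Each is on GRCm38.p6, 5′ to 3′ on the coding strand, with 10 bases before the start and 20 from it, and capitals mark the run. Rps6 is at chr4:86857348-86857377 (minus strand), Rpl39 at chrX:37085203-37085232 (minus), Rpl13a at chr7:45128726-45128755 (minus), Rpl12 at chr2:32961702-32961731 (plus) and Rps9 at chr7:3704031-3704060 (plus). Rpl7l1 is at chr17:46782637-46782666 (minus) and Rps19bp1 at chr15:80264287-80264316 (minus). All of these lie at the promoter and first exon of their gene.
Rps6: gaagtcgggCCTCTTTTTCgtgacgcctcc
Rpl39: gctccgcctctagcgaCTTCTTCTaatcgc
Rpl13a: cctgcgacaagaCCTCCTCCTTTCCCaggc
Rpl12: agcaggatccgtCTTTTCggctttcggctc
Rps9: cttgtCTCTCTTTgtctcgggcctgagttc
Rpl7l1: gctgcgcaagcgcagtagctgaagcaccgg
Rps19bp1: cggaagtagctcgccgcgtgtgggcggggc

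Genes of other TOP mRNAs were higher about as often as all tested genes. Of 16 elongation factors and other genes known for such mRNAs, 6 were higher, 4 were lower and 6 did not pass (37.5% higher and 25% lower, beside 37.6% and 36.7% of all tested genes), with a median log2FC of 0.08. Eef2, Tpt1, Eif3f and Eif3h were lower, by log2FC of -0.41, -0.37, -0.45 and -0.29. Npm1, Eef1d and Btf3 were higher, by 1.29, 0.66 and 0.48, as were Hnrnpa1, Nap1l1 and Naca. Eef1a1 had the same value of 14.01 in all samples. It is the top rank of each distribution, which quantile normalization sets equal, so no change could be seen for it.

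Of 23 genes of mTORC1 and its S6 kinase and LARP1 axis, 12 were higher, 7 were lower and 4 did not pass. These are 52.2% higher and 30.4% lower, beside 37.6% and 36.7% of all tested genes. Mtor itself was higher by a log2FC of 0.84, Larp1 by 0.92, Rps6kb1 (S6 kinase) by 0.53 and Eif4ebp1, a repressor of cap-dependent translation, by 1.53. Their relatives Rps6kb2 and Eif4ebp2 were lower, by -0.40 and -0.19. Of genes that restrain mTORC1, Tsc1 was lower by a log2FC of -0.64, Ddit4 by -1.90, Sesn1 by -2.07 and Sesn3 by -1.70, while Sesn2 was higher by 1.68, Tbc1d7 by 0.85 and Akt1s1 by 0.28. Rptor, Rheb, Tsc2 and Rps6ka2 did not pass, and with the replicate block Rheb did (log2FC 0.16, adjusted p = 0.028, limma).

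Genes that bring ribosomal proteins to the nucleus or guard them on the way were higher. Of 12 chaperones and importers 11 were higher (91.7%, beside 37.6% of all tested genes), with a median log2FC of 0.74, and Tnpo1 did not pass (log2FC -0.10, adjusted p = 0.251, limma). Grwd1, known as a chaperone of Rpl3, was 7.65, 7.38 and 7.48 log2 CPM with CpG and 6.16, 5.98 and 5.87 without, or 283% of the unstimulated level (adjusted p = 2.79e-07, limma). Heatr3, an importer of Rpl5, was higher by 1.82, Bccip, known for Rpl23, by 1.12, and Tsr2, which carries Rps26, by 0.91. The clients named here, Rpl5, Rpl23 and Rps26, were lower, and Rpl3 did not pass.

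The 5S particle is built with Rrs1 and Rpf2, which were higher by log2FC of 1.64 and 1.49. Gltscr2, which also binds the particle, was lower by -0.99, from 9.57, 9.52 and 9.46 log2 CPM in the unstimulated samples to 8.53, 8.59 and 8.48 with CpG. Trp53 was higher by 0.44 and its target Cdkn1a by 1.91, while Mdm2 and Mdm4, which hold p53 back, were lower by -0.42 and -0.58. Of 10 genes of ribosome quality control, 6 were higher, 3 were lower and 1 did not pass (60% and 30%, beside 37.6% and 36.7% of all tested genes). Pelo, which rescues stalled ribosomes, was higher by 1.34, and Zfp598, which senses collided ribosomes, by 0.91.

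Another 2 related groups were mostly higher. All 32 ribosome biogenesis genes, which make and process rRNA and assemble subunits, were higher, with a median log2FC of 1.16 and a range from 0.46 (Pes1) to 2.08 (Rrp9). Of 76 mitochondrial ribosomal protein genes, 67 were higher and 2 were lower, with a median of 0.87. Over all tested genes 37.6% were higher, and of the 75 core cytosolic genes 4.00% were. These counts are descriptions, and no test compared the lists.

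**Figure D4:**
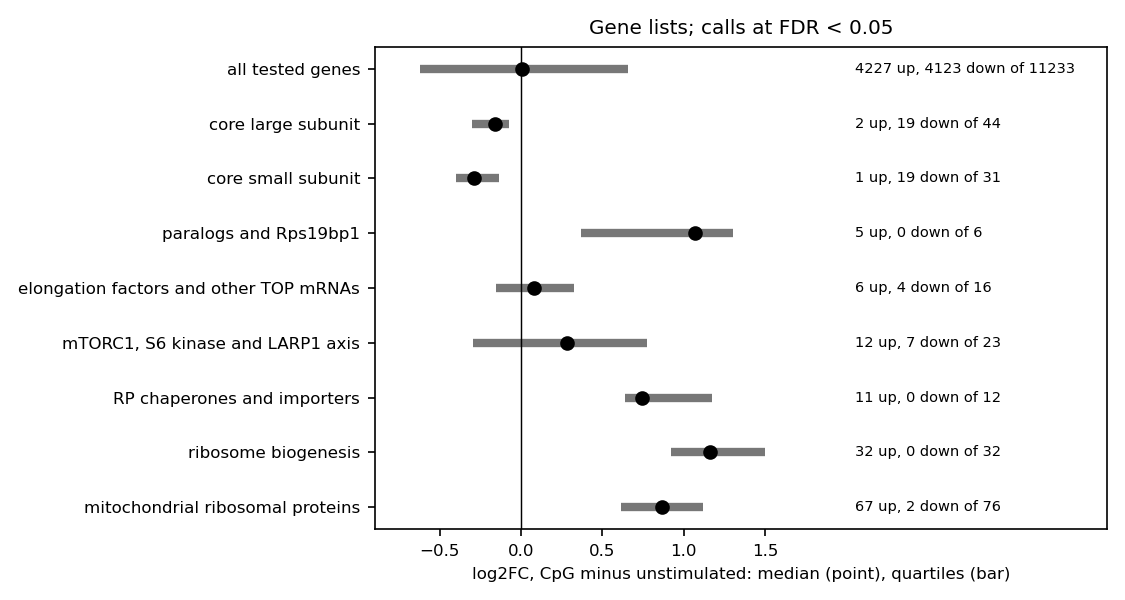
The median (point) and quartiles (bar) of log2FC, CpG minus unstimulated, are shown for all tested genes and 8 gene lists, with the number higher (up) and lower (down) at an adjusted p under 0.05 at the right. Both subunits lie below 0, with medians of -0.16 and -0.29, and ribosome biogenesis and mitochondrial ribosomal protein genes lie above, with medians of 1.16 and 0.87.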

How the data were processed

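The deposited values are log2 CPM. The authors trimmed reads (Trim Galore 0.6.5, with FastQC 0.11.7), aligned them to mm10 with STAR 2.6.1a, counted them per gene with featureCounts (Subread 2.0.1), and applied quantile normalization and voom (limma). Versions are from the submitters' processing notes. Strand settings of the counting and treatment of multiply mapped reads are not given in the sources used here, so genes that overlap on opposite strands are uncertain. A gene without reads in every sample is at -5.152, the value of 0.5 reads, which implies 17.8 M counted reads after normalization. The depth of each sample before it is unknown.

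Tests of CpG against unstimulated samples used lmFit and eBayes (with a trend) of limma 3.58.1, run in R 4.3.3, on the values as deposited, with Benjamini-Hochberg adjustment over 11233 genes, and the procedure was tested on simulated data. Lengths and shared stretches of 75 bases came from GENCODE M21, and promoters from RefSeq. Named genes were the 8 highest and 8 lowest log2FC past the test, the 5 highest and 5 lowest levels per kb, paralogs with their parents, Rplp0, Rplp1, Rplp2, Rpsa, Rps6, Rps27a, Rpl5, Rpl11 and genes of the lists. Some genes that these rules take in are counted but not reported here by name. Members and lists were chosen with earlier results of these data known.

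To see if a shared replicate number pairs samples, each sample's deviations from its group mean were correlated over genes with those of the other group. Samples of the same number had r of 0.435, 0.224 and 0.300, and others had r between -0.281 and 0.0279, so the numbers were taken as pairs. Under the testing threshold, 2471 to 2753 genes had equal values (within 5e-04), off the level without reads, in both samples of a number, against 468 to 555 for other pairs of samples. The values thus carry a shift by number, which can give these correlations and does not alter a log2FC over all 6 samples. The main fit had no block, so such a shift stays in the spread behind its SE and p values. Alternatives covered the filter, block, left-out samples, scale, centring, variance model and length.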

Additional observations from a re-analysis of the deposited data

Results flagged for a closer look

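In 3 tested members the difference between CpG and unstimulated samples had 1 sign in both female pairs and the opposite sign in the male pair, and this difference between the sexes was not tested. Rps27 was 0.21 in the male pair and -0.15 and -0.11 in the female pairs on the log2 scale. Rpl7 was -0.041 in the male pair and 0.04 and 0.02 in the female pairs. Rps14 was -0.015 in the male pair and 0.02 and 0.10 in the female pairs. None of the 3 passed the test between groups, with adjusted p (limma) of 0.948 for Rps27, 0.952 for Rpl7 and 0.641 for Rps14, and only 1 male pair was measured.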

How the results depend on the processing

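With other filters, scales, centrings, variance models or the replicate block, 32 to 46 members were lower, 7 or 8 were higher, and the median log2FC stayed negative. With no filter, 32 of 84 tested members were lower. Of these fits, the shares of all tested genes are given only for the block, so the other counts cannot be set against them. Leaving out 1 sample gave between 31 (without CpG replicate 3) and 54 (without CpG replicate 2) lower members and 7 or 8 higher members. Without CpG replicate 2, 37.7% of all tested genes were lower and 37.5% were higher. For the other fits without 1 sample these shares are not given here, so their counts of members cannot be set against all tested genes. Across the fits without 1 sample, medians ran from -0.23 to -0.13, and differences in the share of summed CPM from -1.67 to -1.25 percentage points. The replicate block gave 46 lower and 8 higher members (all tested genes, 38.2% and 39.1%) and a median of -0.17. It added calls for the 8 members named in the text and, among genes of the other lists, for Rheb, Ltn1 (log2FC -0.16, adjusted p = 0.043, limma), Beta-s, Slc4a1 and Bpgm. It changed no other call among these genes.

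Removing the length trend, chosen after seeing the data, gave 71 lower and 4 higher members (all tested genes, 36.8% and 37.3%) and a median of -0.47. The cause was not tested.

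For 35 named members, 697 values under alternatives were compared, of which 640 kept direction and side of the threshold, 31 no longer passed, 17 newly passed and 9 changed sign. The last were Rps27 (0.13 without unstimulated replicate 2, 0.09 without CpG replicate 1, 0.0335 with pairs 1 and 3 only), Rpl7 (-0.0125 without CpG replicate 1, -0.004 without CpG replicate 2, -0.0179 with other genes rescaled to equal sums, -0.0015 with pairs 1 and 3 only, -0.24 without the length trend) and Rpl36al (-0.18 without the length trend). Without 1 sample, Rps27 was also as low as -0.121 (unstimulated replicate 3) and Rpl7 as high as 0.0305 (CpG replicate 3). The cause was not tested. Depth limits Rps4y2, Rpl39l and Rpl3l, which are near the value of 10 reads or below it. Rpl30 is also below that value, and the reason for its low listed level was not tested.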

Other observations

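Pseudogene symbols with a hyphen and ps were left out of the members, and 5 such genes were listed. Rps19-ps3 was 1.29, 1.40 and 1.48 log2 CPM with CpG and 1.17, 0.59 and 0.62 without, a log2FC of 0.60 (adjusted p = 0.0349, limma). Rps15a-ps6, Rps15a-ps4 and Rpl34-ps1 did not pass (adjusted p = 0.0942, 0.0903 and 0.0951, limma), although Rps15a-ps6 did with the replicate block (adjusted p = 0.0408, limma), and Rpl31-ps12 was below the threshold for testing. Reads of such genes can match their parent genes as well.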
